A study of Mus musculus with 24 samples.

Results

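The mouse genes Serpina1a, Serpina1b, Serpina1c, Serpina1d, Serpina1e and Serpina1f, which lie side by side on chromosome 12, and Serpina3n, which lies at the far end of the same serpin cluster, were followed through kidney injury and repair. They are 7 of the 40750 genes in the deposited table, taken by their symbols. They were picked with measured values of these libraries in view, so their levels and differences are given as descriptions with no p. Where a fit over all genes called a member, the call is listed beside the share of all genes called, and no evidence is drawn from it.

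Serpins are protease inhibitors that trap their target protease by a suicide-like cleavage of an exposed loop. Serpina1a to Serpina1e are the mouse copies of the gene for alpha-1-antitrypsin, a plasma protein made mainly by hepatocytes that inhibits neutrophil elastase. Humans have a single functional gene of this kind. Serpina1f is a more distant relative. Serpina3n is a mouse relative of human alpha-1-antichymotrypsin, is known as an acute phase and injury-induced gene, and inhibits granzyme B and leukocyte elastase.

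The libraries came from kidneys of 12 male mice on a Mixed background, aged 8 to 10 weeks, all of the genotype Kim1-GCE+/-; EGFPL10a+/-. Groups of 3 mice had sham surgery without clamping, or were studied at day 2, day 7 or day 14 after bilateral ischemia-reperfusion injury (IRI) by 20 min of clamping, and tamoxifen was given 6 h before and 24 h after the injury. Kim1 is the protein of Havcr1, a gene switched on in injured proximal tubule, and its Cre leaves the ribosomal tag EGFP-L10a in the cells it marks. Tagged ribosomes pulled down with anti-GFP are the source of the bound libraries, and what the beads left behind is the source of the unbound libraries, labelled as total kidney. There are 24 libraries in 8 groups of 3. The tag is set around the time of injury, so bound RNA at later days comes from cells marked early, and sham kidneys hold few cells that could be marked.

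Depth, inferred from the low values of the table, lay between 15.72 and 24.65 (units of 1e+06 reads). Havcr1 averaged 2.87 ± 2.38, 125 ± 80.9, 170 ± 67.2 and 36.4 ± 16.1 RPKM, a read count scaled for exon length and depth, in the 4 bound groups in order of time (SD, n = 3 each). Unbound RNA of sham mice had 10.8 ± 11.5 RPKM of it (bound over unbound log2 fold -1.47, limma adjusted p = 0.0799), so bound RNA of sham mice was not enriched for the gene that drives the tag. All 7 podocyte markers were higher in bound than in unbound RNA of sham mice by the fit described below. The libraries of the third day 14 mouse stood apart, with a mean r of 0.895 (bound) and 0.937 (unbound) with the other day 14 libraries of their fraction, where those other libraries reached 0.975 (bound) and 0.980 (unbound). The whole table was shifted slightly upwards after injury, by a median of 0.13 to 0.22 on the log2 scale in the 6 comparisons with sham.

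The sequences at the start of the genes show how alike the 5 antitrypsin copies are and how different the other members are, which bears on how their reads can be told apart. In the RefSeq annotation of GRCm38.p6, all 7 promoters matched by symbol. Serpina1a to Serpina1e share an unbroken run of 59 bases before the start, at the right end of their windows below (clipped at the start itself in Serpina1d). Pairs of their promoters of 300 bases are 91.4% to 97.6% identical over the stretch that aligns, which is 233 to 300 bases long. Capitals mark matches of the C/EBP core TTGCNNAA on either strand, and in Serpina1f also of the STAT site TTCNNNGAA. The windows run 5′ to 3′ on the gene's strand, and lie at chr12:103863621-103863779, chr12:103738196-103738354, chr12:103904958-103905116, chr12:103773634-103773788 and chr12:103956956-103957114 for Serpina1a to Serpina1e, at chr12:103695530-103695729 for Serpina1f (all minus strand) and at chr12:104406508-104406707 for Serpina3n (plus strand).
Serpina1a: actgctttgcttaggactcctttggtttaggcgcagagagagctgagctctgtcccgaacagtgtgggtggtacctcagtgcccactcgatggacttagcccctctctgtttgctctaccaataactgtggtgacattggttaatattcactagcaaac
Serpina1b: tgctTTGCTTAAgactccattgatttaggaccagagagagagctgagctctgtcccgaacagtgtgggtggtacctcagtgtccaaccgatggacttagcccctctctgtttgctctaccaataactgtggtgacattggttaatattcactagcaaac
Serpina1c: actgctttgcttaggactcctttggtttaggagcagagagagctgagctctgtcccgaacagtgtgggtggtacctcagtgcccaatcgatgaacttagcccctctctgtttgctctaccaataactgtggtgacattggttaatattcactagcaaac
Serpina1d: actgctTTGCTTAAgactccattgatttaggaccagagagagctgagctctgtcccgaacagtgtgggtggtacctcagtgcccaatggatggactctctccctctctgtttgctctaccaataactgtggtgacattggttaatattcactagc
Serpina1e: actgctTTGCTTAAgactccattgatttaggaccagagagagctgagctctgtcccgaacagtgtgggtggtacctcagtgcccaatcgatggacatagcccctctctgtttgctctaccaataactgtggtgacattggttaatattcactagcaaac
Serpina1f: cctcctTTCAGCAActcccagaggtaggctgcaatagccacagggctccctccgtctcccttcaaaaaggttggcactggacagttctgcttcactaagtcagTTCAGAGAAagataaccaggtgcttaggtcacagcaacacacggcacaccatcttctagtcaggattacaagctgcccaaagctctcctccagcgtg
Serpina3n: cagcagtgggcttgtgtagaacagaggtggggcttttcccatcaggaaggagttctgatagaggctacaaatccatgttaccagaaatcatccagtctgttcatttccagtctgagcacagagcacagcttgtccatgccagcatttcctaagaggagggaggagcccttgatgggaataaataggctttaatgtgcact

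C/EBP factors are transcription factors of liver and other tissues, and STAT factors act downstream of the IL-6 family. The C/EBP core stood in 5 members, Serpina1a (25 bases past the start), Serpina1b, Serpina1d, Serpina1e and Serpina1f, and in 10.8% of 32851 promoters of the same 300 bases. The STAT letters stood only in Serpina1f among the members, against 8.30% of promoters, and the AP-1 letters TGANTCA in Serpina1a to Serpina1d, against 7.81%. The shared run ends 59 bases before the start in Serpina1e, and at most 8 bases before it in the other copies. The 300 bases of Serpina1e therefore reach less far upstream of that run, and sequence beyond them was not searched. These matches are letters in a window and say nothing of binding. The TATA letters TATAAA, found in 13.6% of promoters, stood in none of the 7.

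The coding sequences of Serpina1a to Serpina1e are 91.4% to 96.7% identical to each other, while Serpina1f and Serpina3n are 54.5% to 59.8% identical to those and to each other. Of all 50-base windows of its transcripts, Serpina1c shares 74.2% with another gene, Serpina1a 57.6%, Serpina1d 50.9%, Serpina1e 34.6% and Serpina1b 29.5%. Serpina3n shares 6.90% and Serpina1f 0%. The sources used here do not say how the authors counted reads that match several copies, so values of single antitrypsin copies are uncertain and their sum is given as well. Serpina1f and Serpina3n are little touched by this limit.

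Serpina1d was the most abundant antitrypsin copy of the uninjured kidney and was far lower after injury in both fractions. In unbound RNA it had 74.8, 50.2 and 47.8 RPKM in sham mice, 3.01, 1.51 and 2.32 at day 2, 0.505, 4.24 and 3.78 at day 7, and 5.97, 7.51 and 3.39 at day 14. All 9 unbound libraries after injury lay below all sham libraries, and the day 14 mean of 5.62 ± 2.08 RPKM was 0.0976 of the sham mean of 57.6 ± 14.9 RPKM. The log2 fold of RPKM + 0.5 against sham was -4.39 at day 2, -4.38 at day 7 and -3.28 at day 14 (SE 0.52). In bound RNA it had 21.9, 12.4 and 8.14 RPKM in sham mice, 1.03, 1.60 and 4.41 at day 2, 0.992, 0.682 and 0.628 at day 7, and 8.26, 2.77 and 2.95 at day 14. Bound libraries of day 2 and day 7 lay below those of sham, and those of day 14 overlapped with sham through 1 library. The log2 folds were -2.43, -3.43 and -1.55. The day 7 bound values stand for 17 to 33 inferred reads. Among the 8 groups ranked by mean level, unbound sham, bound sham and unbound day 14 led without overlap between neighbours. The groups after them overlapped with their neighbours, except that bound day 7, the lowest, lay apart from unbound day 2.

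Added up, the 5 copies were lower after injury in unbound RNA, while in bound RNA their ranges overlapped with sham. Their summed level in unbound RNA was 104 ± 57.6 RPKM in sham mice, 12.5 ± 6.01 at day 2, 11.01 ± 5.02 at day 7 and 14.9 ± 3.62 at day 14 (SD, n = 3 each). Each group after injury lay wholly below sham, and the log2 folds were -2.97, -3.16 and -2.66 (SE 0.64). In bound RNA the sum was 26.0 ± 17.4 RPKM in sham mice, 10.2 ± 11.05 at day 2, 15.0 ± 5.66 at day 7 and 21.3 ± 20.5 at day 14. These 4 groups overlapped, with log2 folds of -1.61, -0.64 and -0.49. In bulk RNA, fewer cells of a type and less RNA per cell cannot be told apart, here and in all results that follow.

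Which copy made up most of the sum was not the same in sham and day 7 libraries. Serpina1d was the largest of the 5 copies in 6 of 6 sham libraries, with 57.9% ± 10.0 of the summed RPKM in bound RNA and 61.3% ± 15.4 in unbound RNA (SD, n = 3 each). Serpina1b was the largest in 6 of 6 day 7 libraries, with 74.0% ± 8.93 in bound RNA (64.1% to 81.5%) and 54.2% ± 5.22 in unbound RNA. In sham mice Serpina1b made up 20.0% ± 6.08 of the bound sum and 14.5% ± 6.13 of the unbound sum. Serpina1d was at 5.26% ± 0.593 of the bound sum at day 7 and at 22.4% ± 11.2 of the unbound sum. At day 2 the largest copy varied between libraries. At day 14 Serpina1a led in 3 of 3 bound libraries, with 40.5% ± 4.68, while in unbound RNA Serpina1d led in 2 libraries and Serpina1b in 1. Since the copies share much of their sequence, reads that match several copies could move shares between them, and this was not tested.

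**Figure D1:**
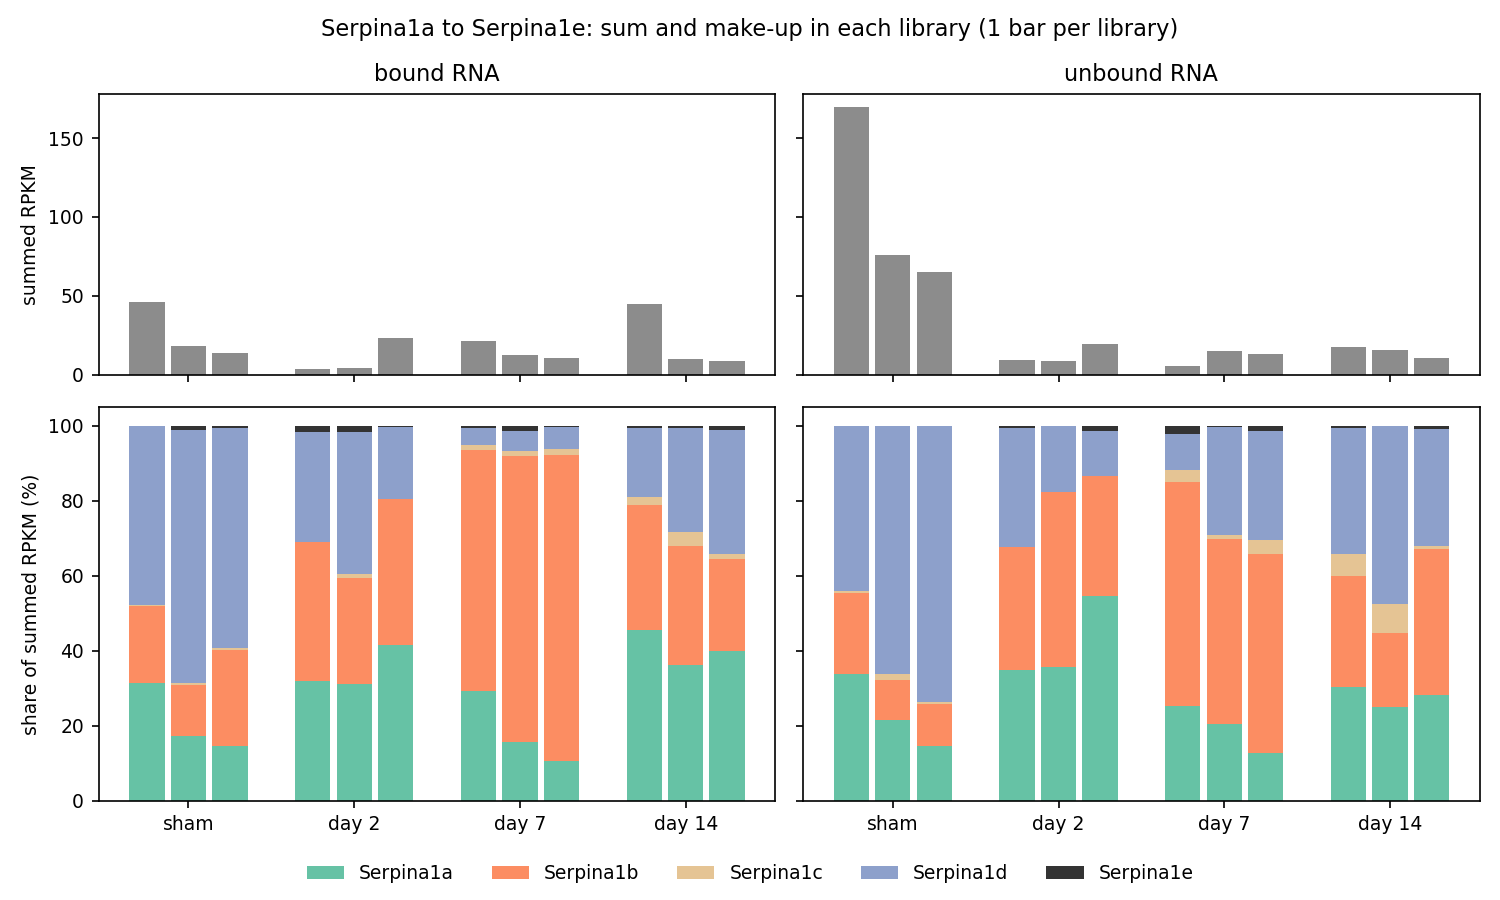
Summed RPKM of Serpina1a to Serpina1e (upper panels) and the share of each copy in that sum in percent (lower panels), for bound RNA (left) and unbound RNA (right), 1 bar per library, ordered from sham to day 14. Serpina1d is the largest share in all 6 sham libraries and Serpina1b in all 6 day 7 libraries.

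Serpina1b itself had 9.47, 2.48 and 3.58 RPKM in bound RNA of sham mice, 1.29, 1.19 and 8.94 at day 2, 13.8, 9.74 and 8.83 at day 7, and 15.0, 3.17 and 2.21 at day 14. The day 7 bound mean of 10.8 ± 2.62 RPKM was 2.08 times the sham mean of 5.18 ± 3.76 RPKM, with overlapping libraries and a log2 fold of 1.16 (SE 0.68). In unbound RNA it had 36.6, 8.15 and 7.28 RPKM in sham mice, 3.11, 3.98 and 6.22 at day 2, 3.17, 7.30 and 6.91 at day 7, and 5.27, 3.14 and 4.21 at day 14. Unbound libraries of day 2 and day 14 lay below all sham libraries, and those of day 7 overlapped with sham. One sham mouse, the first, was high in Serpina1a and Serpina1b in both fractions.

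Serpina1a varied widely among mice of a group. In unbound RNA it had 57.4, 16.2 and 9.48 RPKM in sham mice, 3.30, 3.02 and 10.6 at day 2, 1.33, 3.00 and 1.66 at day 7, and 5.42, 3.98 and 3.06 at day 14. Unbound libraries of day 7 and day 14 lay below all those of sham, with log2 folds of -3.15 and -2.23 (SE 0.80). In bound RNA it had 14.4, 3.17 and 2.01 RPKM in sham mice, 1.11, 1.31 and 9.55 at day 2, 6.29, 1.99 and 1.15 at day 7, and 20.4, 3.61 and 3.58 at day 14. Each of these bound groups overlapped with sham, with log2 folds of -0.74, -0.76 and 0.45, none past its SE. Ranked by mean level, all 8 groups overlapped with the next, for Serpina1a and for Serpina1b.

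The remaining copies were near the limit of detection. Serpina1c had 0.913, 1.26 and 0.313 RPKM in unbound RNA of sham mice, 0 in all 3 day 2 libraries, 0.172, 0.136 and 0.489 at day 7 and 1.08, 1.23 and 0.0763 at day 14. In bound RNA it was at 0.0633 to 0.160 RPKM in sham mice, and reached 0.905 RPKM in 1 day 14 library. Its values stand for 0 to 36 inferred reads, and 3 reads amount to 0.0894 to 0.140 RPKM, so a level of 0 at day 2 is a limit of that size. Serpina1c passed the filter on low values with exactly 3 libraries, 1 of sham and 2 of day 14, all unbound. Serpina1e lay between 0 and 0.293 RPKM in all 24 libraries, or at most 10 inferred reads, and was the single member left out of the fit. Such low values say little of either gene, and Serpina1c shares 69.4% of its 50-base windows with Serpina1a.

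**Figure D2:**
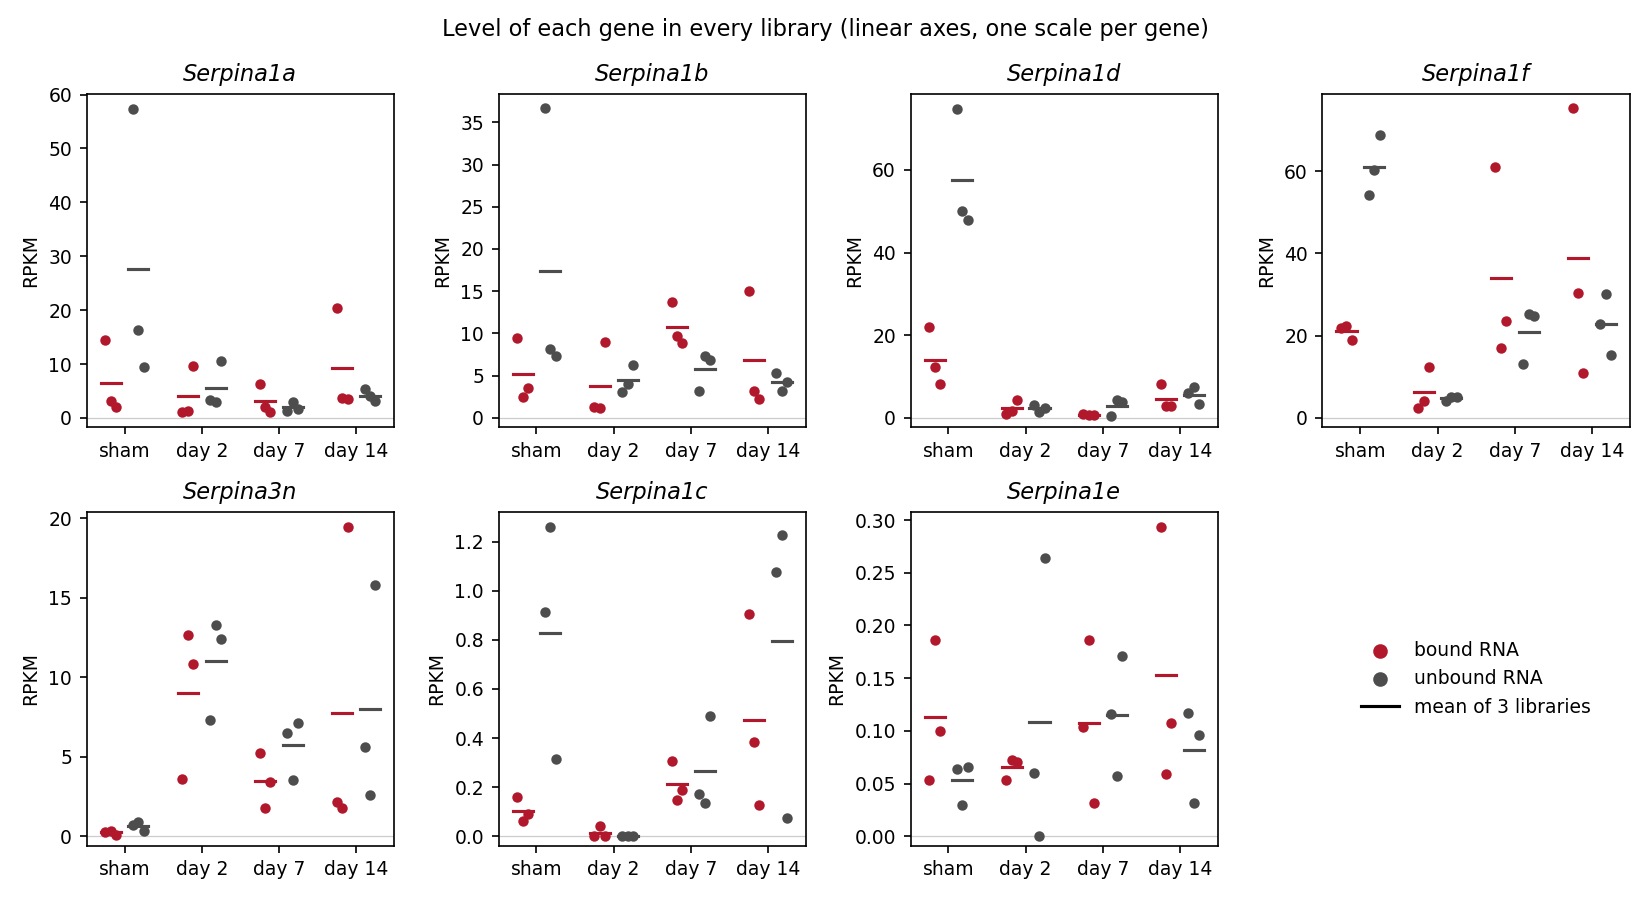
RPKM of each of the 7 genes in every library on linear axes with a scale of its own, by time, with bound RNA (red) left of unbound RNA (grey); points are libraries and bars the mean of 3. Serpina1d and Serpina1f have their highest mean in unbound RNA of sham mice, and Serpina3n is lowest in the 6 sham libraries.

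Serpina1f, with Serpina1d the most abundant member in unbound RNA of sham mice, was lowest on average at day 2 in both fractions and closer to sham at day 7 and day 14. In unbound RNA it had 54.2, 60.3 and 68.7 RPKM in sham mice, 4.20, 4.97 and 5.06 at day 2, 13.01, 25.2 and 24.8 at day 7, and 22.8, 30.2 and 15.2 at day 14. The unbound day 2 libraries lay below those of each other time, and those of day 7 and day 14 stayed below all sham libraries. The log2 folds were -3.55, -1.57 and -1.45 (SE 0.55), and the means were 0.0777, 0.344 and 0.372 of the sham mean. In bound RNA it had 22.0, 22.4 and 18.9 RPKM in sham mice, 2.48, 4.14 and 12.4 at day 2, 61.1, 17.0 and 23.6 at day 7, and 75.3, 30.5 and 10.9 at day 14. Bound libraries of day 2 lay below sham, with a log2 fold of -1.94, while those of day 7 and day 14 lay on both sides of sham, with log2 folds of 0.46 and 0.47. Without the first day 2 bound library the day 2 log2 fold was -1.48. Ranked by mean level, each of the 8 groups overlapped with the next, except that unbound day 7 lay above bound day 2.

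Serpina3n went the other way: it was near 0 in sham kidneys and higher at every time after injury. In bound RNA it had 0.274, 0.355 and 0.118 RPKM in sham mice, 3.61, 12.6 and 10.8 at day 2, 5.24, 1.77 and 3.44 at day 7, and 2.13, 1.80 and 19.4 at day 14. In unbound RNA it had 0.702, 0.875 and 0.335 RPKM in sham mice, 7.31, 13.3 and 12.4 at day 2, 6.48, 3.53 and 7.14 at day 7, and 5.64, 2.60 and 15.8 at day 14. All 18 libraries after injury lay above all 6 sham libraries. Ranked by mean level, from unbound day 2 at the top to bound sham at the bottom, that step to sham was the single one at which neighbouring groups did not overlap. Means were 36.2, 14.0 and 31.3 times sham in bound RNA and 17.3, 8.97 and 12.6 times sham in unbound RNA at day 2, day 7 and day 14. On the log2 scale, where the pseudocount of 0.5 RPKM holds back the low sham values, the folds were 3.52, 2.32 and 2.74 in bound RNA and 3.33, 2.43 and 2.60 in unbound RNA (SE 0.65). The highest 2 of the 24 values, 19.4 and 15.8 RPKM, came from both libraries of the third day 14 mouse. Without its bound library the day 14 fold in bound RNA was 1.73. Summed macrophage markers were also high in that mouse, at 1944 RPKM in bound and 1878 RPKM in unbound RNA, against at most 866 RPKM in any other library, and their part in the Serpina3n level was not tested.

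**Figure D3:**
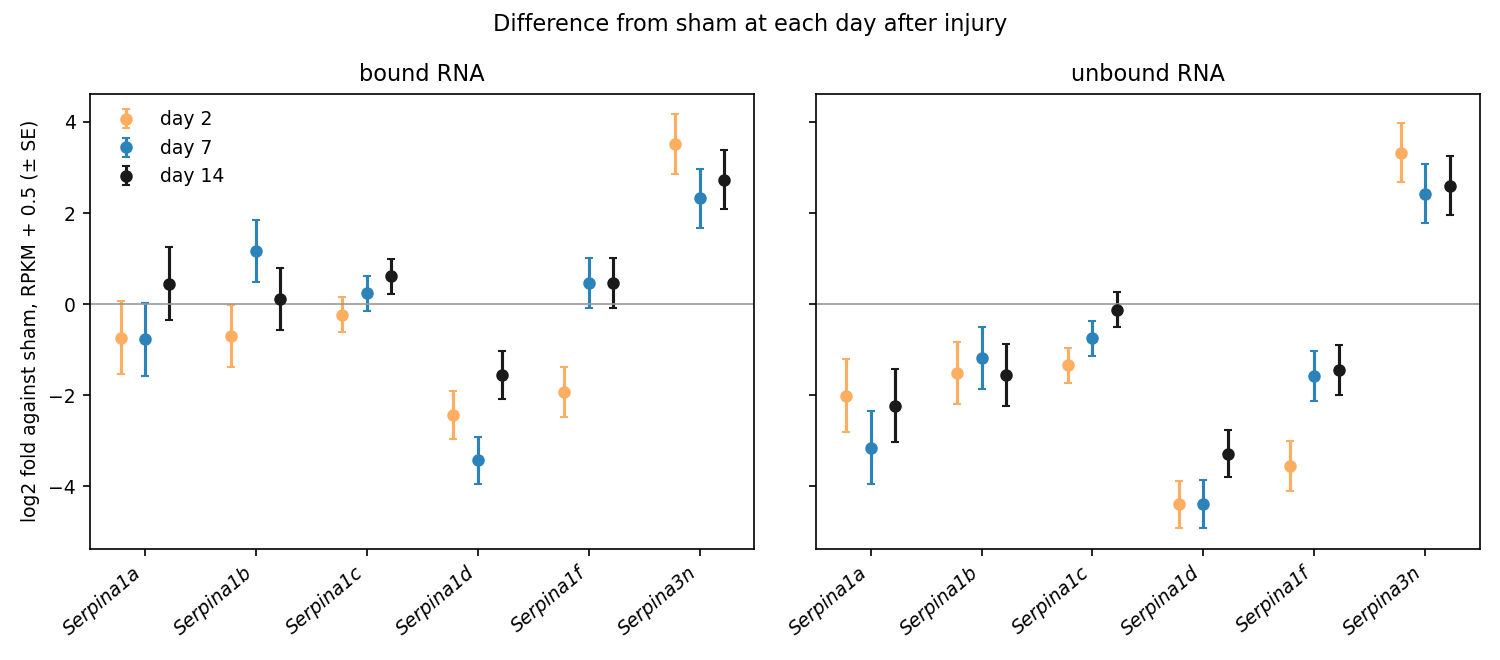
Log2 fold against sham of RPKM + 0.5 for the 6 members that entered the fit, at day 2, day 7 and day 14, in bound RNA (left) and unbound RNA (right), with bars of 1 SE. Serpina1d lies below 0 and Serpina3n above 0 at all times in both fractions, and Serpina1f is lowest at day 2.

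The comparisons with sham were fitted with limma over 13721 genes, and calls below are those with an adjusted p under 0.05. In bound RNA at day 2, 3 of the 6 fitted members were called, where 19.8% of all genes were called. Serpina3n was higher there (13.3% of genes called higher), and Serpina1d and Serpina1f were lower (6.48% called lower). At day 7 in bound RNA 2 members were called (22.7% of genes), Serpina3n higher (15.2%) and Serpina1d lower (7.55%). At day 14 in bound RNA Serpina3n alone was called (13.3% of genes), and it was higher (8.71%). In unbound RNA at day 2 there were 4 (14.8% of genes), Serpina3n higher (9.76%) and Serpina1c, Serpina1d and Serpina1f lower (5.04%). Serpina1c had passed the filter on low values through unbound libraries of sham and day 14 alone, which favours a lower value at day 2. In unbound RNA at day 7 (1.09% of genes, 0.182% lower) and day 14 (1.23% of genes, 0.248% lower) 1 member was called, Serpina1d, and it was lower. The call of Serpina1f at day 2 in bound RNA was lost without any 1 of 3 libraries, 2 of day 2 and 1 of sham. Since the members were picked on these values, nothing is read from these counts. Of all calls in the 6 comparisons in this order, 67.3%, 66.7%, 65.5%, 65.96%, 83.3% and 79.9% were higher. After median-ratio rescaling those shares were 47.2%, 47.2%, 41.4%, 50.2%, 74.9% and 66.5%.

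Most members were lower in bound than in unbound RNA of sham mice. In all 3 sham mice the bound level was below the unbound level of the same mouse for Serpina1a, Serpina1b, Serpina1c, Serpina1d, Serpina1f and Serpina3n. The mean log2 of bound over unbound was -2.05 ± 0.124 for Serpina1a, -1.46 ± 0.488 for Serpina1b, -2.07 ± 0.375 for Serpina1d and -1.51 ± 0.288 for Serpina1f (SD, n = 3 mice). For Serpina3n it was -0.59 ± 0.132. At day 7 Serpina1b was higher in bound RNA in 3 of 3 mice (mean log2 0.90 ± 0.922), and Serpina1a and Serpina1f in 1 of 3. Serpina1d was lower in bound RNA in 2 of 3 mice at day 7, at -1.12 ± 1.46. Serpina3n was lower in bound RNA in 11 of 12 mice, the exception being the third day 14 mouse.

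**Figure D4:**
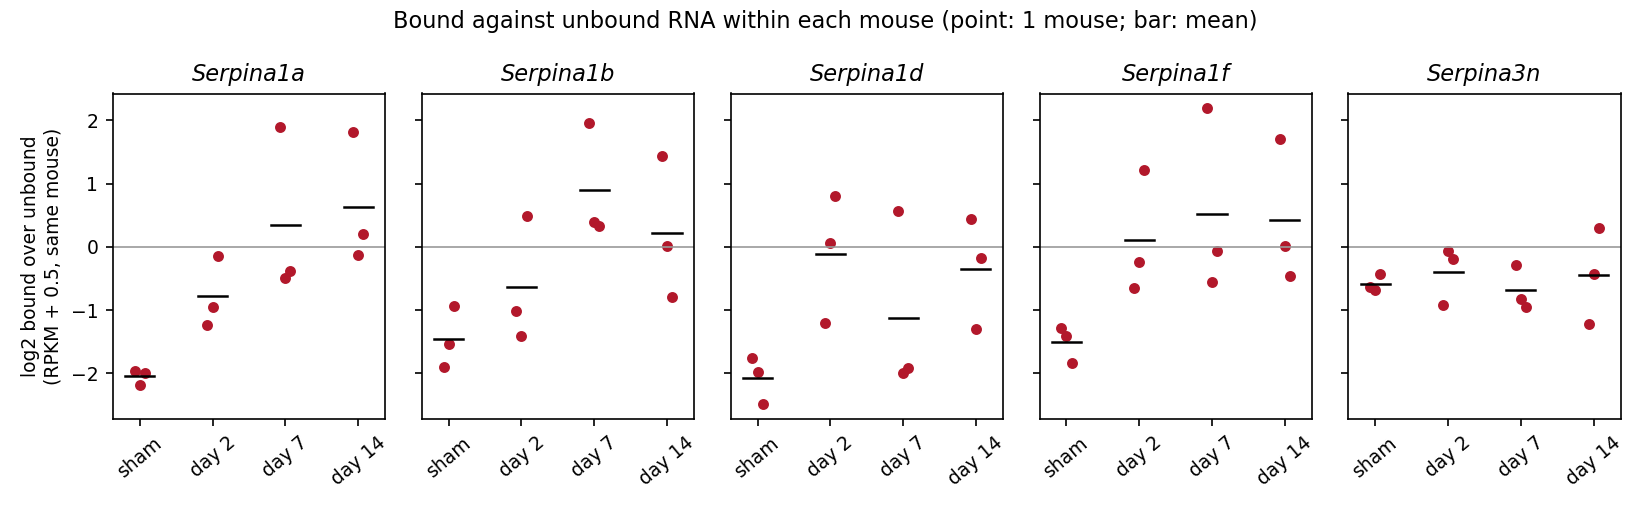
Log2 of bound over unbound RPKM + 0.5 in each mouse (points) with the mean of 3 mice (bars), from sham to day 14, for 5 members. All sham mice lie below 0 for each of the 5 genes, and Serpina1b lies above 0 in all 3 day 7 mice.

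In the fit, 3 of 6 members were called in sham mice, all lower in bound RNA (Serpina1c, Serpina1d and Serpina1f), where 27.6% of genes were called and 12.9% were called lower. Serpina1c had passed the filter on low values through unbound libraries alone, which favours a lower value in bound RNA. None was called between fractions at day 2 (1.68% of genes called), day 7 (2.35%) or day 14 (0.816%). With the bound and unbound library of a mouse treated as a pair, Serpina1a (log2 fold -2.05, SE 0.42) and Serpina1b (-1.46, SE 0.43) were called in sham mice as well. No member was called when the day 2, day 7 or day 14 change was compared between fractions, where 0%, 0.146% and 0.197% of genes were called. At day 2 limma called 0 genes of all, with 758 at an unadjusted p under 0.05. With the pairing, Serpina1a was called for the day 7 and day 14 change (2.38 and 2.68, SE 0.59) and Serpina1b for the day 7 change (2.35, SE 0.60). In bound RNA the log2 folds against sham were -0.76 and 0.45 for Serpina1a at day 7 and day 14 and 1.16 for Serpina1b at day 7, each above the fold in unbound RNA. The members were picked on these values, so nothing is read from these calls, with or without the pairing. The call of Serpina1f between fractions in sham mice was lost in 9 of 12 alternative settings. Markers of proximal tubule were also lower in bound RNA of sham mice, with 6 of 12 genes of the S1 and S2 segments and 5 of 12 of the S3 segment called lower, and their part in the lower member levels was not tested.

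The genes most similar to each member over the 24 libraries differed between members. The likeness is Pearson's r of log2(RPKM + 0.5), given as a description, since libraries of a group and of a mouse are not independent. The nearest gene to Serpina1f was Slc22a13 (r = 0.96), an organic anion transporter gene, Napsa (0.95), an aspartic protease gene, Slc22a19 (0.95), another organic anion transporter gene, the oxysterol hydroxylase gene Cyp7b1 (0.93) and Bcat1 (0.90), a branched-chain aminotransferase gene. For Serpina3n it was Rcn1 (0.98), which encodes a calcium-binding protein of the endoplasmic reticulum, the platelet chemokine gene Pf4 (0.95), Rrbp1 (0.94), the collagen gene Col8a1 (0.93) and Timp1 (0.93), an inhibitor of matrix metalloproteases. For Serpina1d they included Azgp1 (0.86), Retsat (0.84), Cyp2d12 (0.81) and Etnppl (0.81). For Serpina1b they were the apolipoprotein genes Apoa4 (0.76) and Apoa1 (0.74), then Mettl7a2 (0.73), Serpina1a (0.72) and Hsd11b1 (0.71). For Serpina1a they were Htatip2 (0.80), Eif4ebp3 (0.77), Sult1d1 (0.75), Serpina1d (0.75) and Cyp2a4 (0.73). Serpina1c, close to its detection limit, was led by Cyp2j11 (0.83), Akr1d1 (0.82), Spag8 (0.82), Iglv1 (0.82) and Mep1a (0.81). For the sum of Serpina1a to Serpina1e the list included Ceacam2 (0.80), Cyp2d9 (0.79), Proc (0.77) and Aacs (0.75).

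**Figure D5:**
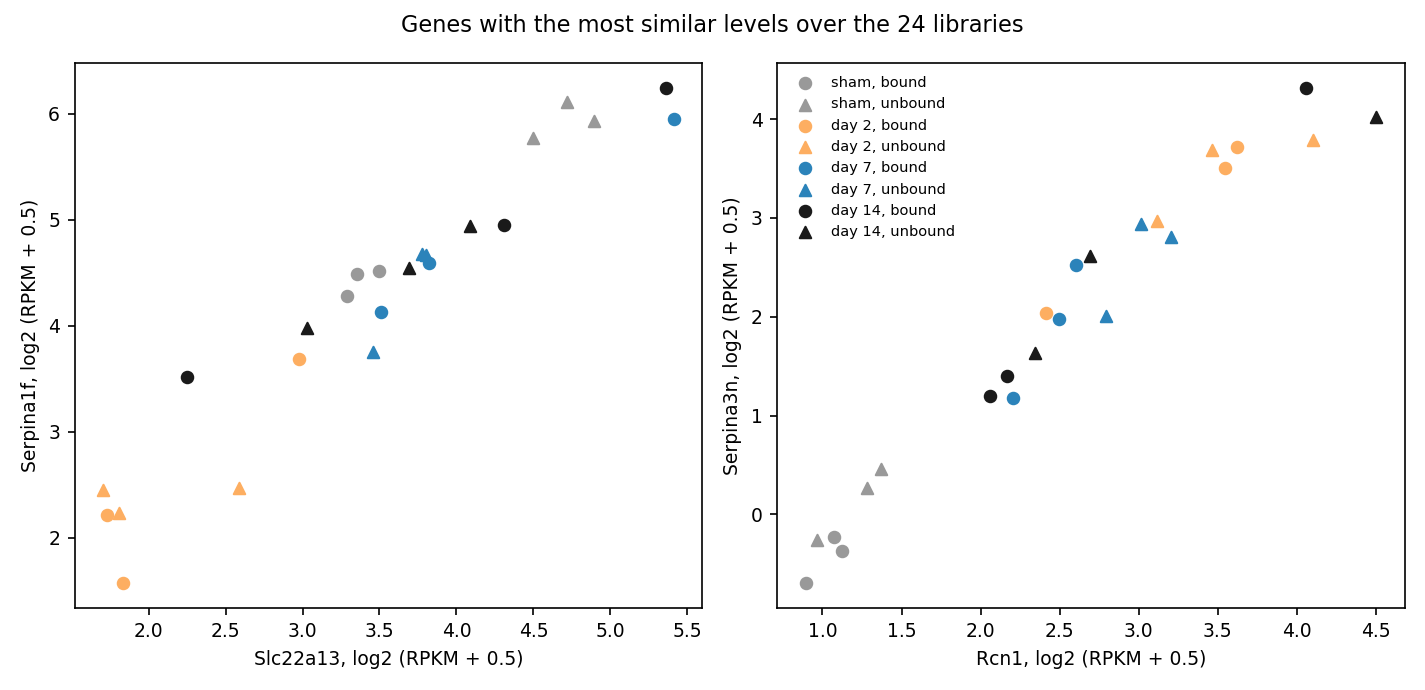
Serpina1f against Slc22a13 (left) and Serpina3n against Rcn1 (right), both as log2 (RPKM + 0.5), over the 24 libraries; colours are times, circles bound and triangles unbound RNA. In the left panel 5 of the 6 day 2 libraries lie lowest, and in the right panel the 6 sham libraries lie lowest.

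Among relatives in the same clade, 3 of 18 listed genes were expressed enough to test, Serpina10, Serpina3g and Serpina6. All 3 rose in bound RNA at day 7, as did Serpina10 at day 2 and Serpina10 and Serpina3g at day 14. None passed in unbound RNA at any time, where 14.8%, 1.09% and 1.23% of all genes were called at day 2, day 7 and day 14. In bound RNA 13.3%, 15.2% and 8.71% of all genes were called higher. These shares apply to the list counts below as well, those for bound RNA to genes that rose. In unbound RNA 9.76% of all genes were called higher at day 2. For listed genes that fell, 6.48% and 7.55% of all genes were called lower in bound RNA at day 2 and day 7. At day 14 in bound RNA 629 of 13721 genes were called lower. In unbound RNA 5.04%, 0.182% and 0.248% were called lower at day 2, day 7 and day 14. In sham mice 12.9% were called lower in bound than in unbound RNA. The clade list summed to 1.95 to 5.75 RPKM in unbound RNA of sham mice. It was higher in all unbound libraries after injury, at 8.79 to 10.7, 12.9 to 24.1 and 8.02 to 32.05 RPKM. Serpina10, which encodes the inhibitor of coagulation factor Xa that depends on protein Z, averaged 20.4 ± 12.4 RPKM in bound RNA at day 7, against 1.55 ± 1.45 RPKM in sham mice (log2 fold 3.44, SE 0.55, limma adjusted p = 0.000316). In bound RNA Serpina10 was at 6.02 ± 1.15 RPKM at day 2 and at 10.7 ± 5.25 RPKM at day 14. In gene order it stands first in the cluster, with Serpina6, Serpina16 and then Serpina1f next to it. Serpina6, which encodes the corticosteroid-binding globulin, averaged 5.54 ± 8.07 RPKM in bound RNA at day 7, against 0.0326 ± 0.0565 RPKM in sham mice (log2 fold 2.48, limma adjusted p = 0.0228). Without the library with the most, at 14.8 RPKM, the log2 fold was 1.29 and did not pass, and the call was also lost without either of 2 sham libraries and without the filter on low values. Serpina3g averaged 8.96 ± 12.2 RPKM in bound RNA at day 14, against 0.322 ± 0.328 RPKM in sham mice (log2 fold 2.73, limma adjusted p = 0.0141), or a log2 fold of 1.63 without the third day 14 bound library.

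Of 27 serpin genes of other clades 13 were tested. In bound RNA 4 rose at day 2, 3 at day 7 and 1 at day 14, and in unbound RNA 4 rose and 1 fell at day 2 and none passed later. Serpinb9b rose by a log2 fold of 3.07 in bound RNA at day 7 (limma adjusted p = 0.000162). Serpinb6a rose by 1.98 (limma adjusted p = 0.00108) and Serpinb1a, known as an inhibitor of neutrophil elastase, by 1.63 (limma adjusted p = 0.00251) in unbound RNA at day 2.

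The leukocyte protease genes Elane, Ctsg, Prtn3 and Gzmb, picked out of a longer list after their values were seen, were low or at 0. Elane, the gene of neutrophil elastase, was at 0 in 7 of the 8 groups and reached 0.463 RPKM in 1 library of unbound RNA of sham mice. Ctsg, the gene of cathepsin G, was at 0 throughout, and Prtn3, the gene of proteinase 3, had its highest mean in unbound RNA at day 2, at 1.34 ± 0.784 RPKM, against 0.107 ± 0.0440 RPKM in sham mice. Gzmb, the gene of granzyme B, was at most 0.403 RPKM in any library. Of 24 listed serine proteases 12 were tested, and 11 to 13 were under 1 RPKM in every library of a group, while the list summed to 702 to 2221 RPKM over the libraries. In bound RNA 1 rose and 1 fell at day 2, 2 fell at day 7 and none passed at day 14, and in unbound RNA 3 rose and 2 fell at day 2 and none passed later. Proc, the gene of the anticoagulant protein C, fell to 75.8 ± 17.5 RPKM in unbound RNA at day 2, against 234 ± 12.9 RPKM in sham mice (log2 fold -1.64, limma adjusted p = 0.00439). The proteases Klk1 and Cela1 were lower in bound RNA than in unbound RNA, Klk1 at day 7 (log2 fold -1.85, limma adjusted p = 0.00247) and Cela1 in sham mice (-1.91, limma adjusted p = 0.000729).

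Serpina3n is known as an acute phase gene, and other such genes were mostly higher at day 2. Of 19 tested acute phase genes 11 rose and 1 fell in bound RNA at day 2 (median log2 fold 1.96, against 0.16 for all genes), and 10 rose and 2 fell in unbound RNA (median 2.08, against 0.20). Later in bound RNA 6 rose at day 7 and 4 at day 14. Lcn2, a secreted iron-siderophore binding protein of injured tubule, averaged 215 ± 52.2 RPKM in unbound RNA at day 2, against 4.20 ± 1.65 RPKM in sham mice (log2 fold 5.54, limma adjusted p = 1.61e-05). Lrg1 rose by 4.11 in bound RNA at day 2 (limma adjusted p = 7.55e-06) and Saa1, serum amyloid A, by 3.86 in unbound RNA at day 2 (limma adjusted p = 3.81e-07). The complement gene C3 was highest in bound RNA at day 7, at 56.0 ± 9.78 RPKM, against 4.51 ± 2.32 RPKM in sham mice (log2 fold 3.58, limma adjusted p = 2.61e-05).

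Of 20 tested genes of the IL-6 family and STAT3 signalling, which drive acute phase genes in liver, 7 rose and 1 fell at day 2 in each fraction. In bound RNA 3 rose at day 7 and 3 at day 14, and in unbound RNA 1 rose at each of these times. Lif, a cytokine of the family, rose by a log2 fold of 2.21 in bound RNA at day 2 (limma adjusted p = 0.00111), Bcl3 by 2.17 (0.00174) and Cebpb, which encodes a C/EBP factor, by 2.10 in unbound RNA (limma adjusted p = 0.00225). Il1rn, the interleukin-1 receptor antagonist, rose by 4.56 in bound RNA at day 7 (limma adjusted p = 9.63e-05). Of 7 tested liver-enriched transcription factors none rose against sham in either fraction. In bound RNA 1, 2 and 1 fell at day 2, day 7 and day 14, and 2 fell in unbound RNA at day 2. Nr1h4, a bile acid receptor, fell by 1.59 on the log2 scale in bound RNA at day 7 (limma adjusted p = 0.00444).

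Most markers of the S3 segment of the proximal tubule fell at day 2, when Serpina1f was lowest on average. In unbound RNA at day 2, 10 of 12 fell, with a median log2 fold of -3.18, and the sum of the list was 57.4 to 124 RPKM, against 601 to 709 RPKM in sham mice. In bound RNA at day 2, 7 fell and 1 rose. At day 7 and day 14 none passed in unbound RNA, and 2 rose in bound RNA at each time. Of S1 and S2 markers 6 of 12 fell in bound and 5 of 12 in unbound RNA at day 2. The genes Cyp7b1, Slc22a13 and Slc22a19, listed above for their likeness to Serpina1f, are on the S3 list, which was written with earlier results of these data known. All 12 S3 markers were above 0 in each group, and their part in the level of Serpina1f was not tested.

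Hepatocytes are the main source of antitrypsin, so markers of liver RNA were read as well. Of 14 hepatocyte plasma protein genes, Cps1, F9, Ahsg, Mup3 and Tat were at or near 0 in all groups, none above 0.364 RPKM in any library, and 6 of the 14 were under 1 RPKM in all unbound libraries of sham mice. Alb, the gene of albumin and among the most abundant transcripts of liver, was at 2.39 ± 1.30 RPKM in unbound RNA of sham mice, where Serpina1d was at 57.6 ± 14.9 RPKM. The sum of the list was 220 to 435 RPKM in unbound RNA of sham mice and 189 to 250 RPKM at day 2, most of it Ttr, the gene of transthyretin, at 260 ± 109 RPKM in sham mice. The apolipoprotein genes Apoa2 and Apoc3 were at 22.2 ± 1.23 RPKM and 26.3 ± 5.47 RPKM there. Of 8 tested genes of the list 3 were lower in bound than in unbound RNA of sham mice, as members were, namely Apoa2 (log2 fold -1.85, limma adjusted p = 0.00017), Ttr (-2.16, limma adjusted p = 0.000839) and Apoc3 (-2.48, limma adjusted p = 0.0103). The part of such RNA in the member levels was not tested. Fgb, a fibrinogen chain that is also an acute phase gene, rose at day 2 in bound RNA (log2 fold 3.68, limma adjusted p = 0.00371) and in unbound RNA (3.13, limma adjusted p = 0.0137).

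Some immune and stromal markers also rose after injury. Of 5 tested neutrophil markers 4 rose in bound RNA and 3 in unbound RNA at day 2, and none passed later. The sum of the 12 neutrophil markers was 97.2 to 285 RPKM in unbound RNA at day 2, against 15.6 to 61.2 RPKM in sham mice, with the granule protein genes Mpo, Elane and Ltf below 0.47 RPKM in every library. Of 12 tested macrophage markers 2 rose at day 2 and 6 at each later time in bound RNA, and 1 rose at each time in unbound RNA. Of 10 stromal markers 4 rose at day 2, 2 at day 7 and 4 at day 14 in bound RNA, and 4, 1 and 3 rose at these times in unbound RNA. The sum of the stromal list was 131 to 647 RPKM in bound RNA at day 2, against 38.1 to 44.3 RPKM in sham mice. The part of these cells in the level of Serpina3n was not tested.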

How the data were processed

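The table deposited by the authors holds RPKM, 1 column for each of 24 libraries. Per the submitters' processing notes, STAR 2.0.4b, featureCounts 1.4.5 of the Subread package and edgeR were used. The genome build, the annotation, the strand setting and the handling of reads that match several genes are not given in the sources used here. Its 41831 lines hold 40750 genes; 1081 lines repeated an identifier with identical values and were dropped, among them 1 of 2 lines of Serpina1a. Depth was inferred from the spacing of low values with exon lengths of GENCODE M21 (GRCm38): 73.8% to 78.1% of values up to 50 reads came out whole within 0.02 reads, and every member value up to 50 reads within 0.05.

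Genes reaching 1 RPKM in 3 or more libraries were kept. A model with 1 mean for each of the 8 groups and no block was fitted to log2(RPKM + 0.5) with limma 3.58.1 (R 4.3.3), using all libraries and empirical Bayes with an abundance trend. The 13 comparisons were each day against sham in each fraction, bound against unbound RNA at each time, and each day's change compared between fractions. Adjustment was by Benjamini and Hochberg over all genes tested. The p-values rest on 1 spread per gene, estimated over all 24 libraries and adjusted by empirical Bayes, with 3 mice a group. Those between fractions treat the bound and unbound library of a mouse as independent, unless the pairing is named. In a test on simulated data (100 planted genes per fold size), 40% of 2-fold and 92% of 4-fold changes at day 2 in bound RNA were recovered over 13721 genes, and 6% and 70% for the day 7 change compared between fractions.

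The members and the gene lists were chosen with earlier results of these data known. All members are named; of each list, up to 4 tested genes with the smallest p over the comparisons are named (Elane, Ctsg, Prtn3, Gzmb, Alb and other listed genes at or near 0 were added after their values were seen), and for each member the 5 genes with the highest r. Some genes these rules pick are not reported here. Bound and unbound libraries of the same number were taken as 1 mouse, since the deviations of each of the 12 pairs from their group means correlated at 0.268 to 0.67. Pairs of different numbers had a negative r, except those between the first and second day 14 mice, at 0.272 and 0.309. Those exceeded the lowest of the 12 but stayed below the same-number values at day 14. The pairing is thus an inference from these values. Identities and motifs were computed in Python 3.11.15 with Biopython 1.88 from RefSeq promoters and GENCODE transcripts. Alternatives were pseudocounts of 0.1 and 1, no filter, median-ratio and quantile scaling, the replicate block, leaving out each replicate, and the summed RPKM of Serpina1a to Serpina1e.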

Additional observations from a re-analysis of the deposited data

How the results depend on the processing

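No member fold that was called changed its sign under any alternative, and 1018 alternative values of member folds differed from the reported ones by less than the spread between replicates. Dropping the filter and adding the replicate block cannot change a member's fold, only its SE and call. Their values are among the 1018 by construction and are no sign of stability. Another 38 moved by more, such as 4.59 in place of 3.52 for Serpina3n at day 2 in bound RNA with a pseudocount of 0.1. Calls lost without 1 library were Serpina1d at day 14 in unbound RNA (log2 fold -2.98 without the third day 14 library) and Serpina3n at day 7 in bound RNA (2.01 without the first). Serpina1c at day 2 in unbound RNA was lost without any 1 of 4 libraries, and its call between fractions in sham mice under 7 settings. Serpina1f lost its call at day 2 in bound RNA without any 1 of 3 libraries (log2 fold -2.53 to -1.48 over all alternatives), and its call between fractions in sham mice under 9 settings. Calls were gained by Serpina1d at day 14 in bound RNA under 4 settings and by Serpina3n at day 14 in unbound RNA under 3. Others gained were Serpina3n at day 7 in unbound RNA with a pseudocount of 0.1, Serpina1a at day 7 in unbound RNA after median-ratio rescaling, Serpina1f for the day 14 change without the third day 14 bound library, and, beside those under the replicate block, Serpina1a between fractions in sham mice without either of 2 libraries. The cause of these changes was not tested.

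Over all genes, the count of calls moved by more than 1.5 times under these settings, for which the cause was not tested. Without the filter there were 53 calls at day 7 and 58 at day 14 in unbound RNA, 145 between fractions at day 2, and 1, 13 and 5 for the day 2, day 7 and day 14 change compared between fractions, where the main counts were 150, 169, 230, 0, 20 and 27. A pseudocount of 1 gave 108 at day 14 in unbound RNA, and 0.1 gave 13 for the day 7 change. Median-ratio rescaling gave 13 and 9 for the day 7 and day 14 change, and quantile normalization 14 for day 14. With the replicate block, which pairs the libraries of a mouse, calls between fractions were 1304, 1563 and 359 at day 2, day 7 and day 14, against 230, 323 and 112, and those for the change compared between fractions 722 at day 7 and 862 at day 14; for day against sham the block joins different mice and gave between 135 and 3027 calls, and it changed no member call there. Without both libraries of the third day 14 mouse, chosen after seeing the data, the day 14 change gave 691 calls.

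Leaving out 1 library at a time, calls ranged from 1349 to 4073, 1915 to 3808 and 788 to 2636 in bound RNA and from 858 to 2003, 18 to 57 and 9 to 381 in unbound RNA at day 2, day 7 and day 14. Between fractions they ranged from 2699 to 4149 in sham mice and from 57 to 1191, 83 to 200 and 51 to 351 at the 3 days, and for the change compared between fractions from 0 to 111, 3 to 199 and 2 to 1821. Depth limits Serpina1c and Serpina1e, whose values rest on at most 36 reads.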

Other observations

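Antitrypsin is folded and checked in the endoplasmic reticulum before it is secreted. Of 15 genes of export and glycoprotein quality control there, 6 rose in bound RNA at day 2, 6 at day 7 and 4 at day 14. None passed in unbound RNA at any time (0 of 15 by limma). Of all genes, 13.3%, 15.2% and 8.71% were called higher in bound RNA at these times. In unbound RNA 14.8%, 1.09% and 1.23% were called in either direction, so few calls could be met there at day 7 and day 14. The list summed to 260 to 419 RPKM in bound and to 514 to 594 RPKM in unbound RNA of sham mice. Derl1, part of the machinery that removes misfolded proteins, averaged 28.9 ± 6.29 RPKM in bound RNA at day 14, against 13.7 ± 0.817 RPKM in sham mice (log2 fold 1.02, limma adjusted p = 0.00463). In sham mice 6 of the 15 were lower in bound than in unbound RNA, among them Canx, the gene of calnexin, at 59.0 ± 19.3 RPKM in bound and 144 ± 5.70 RPKM in unbound RNA (log2 fold -1.33, limma adjusted p = 9.16e-05).

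Of 13 genes listed as androgen-responsive in male mouse kidney, 4 fell in bound RNA and 6 in unbound RNA at day 2. At day 7, 2 rose and 3 fell in bound RNA and 1 fell in unbound RNA. Cyp2d9, which was among the genes most like the sum of Serpina1a to Serpina1e, averaged 5.61 ± 3.86 RPKM in unbound RNA at day 2, against 88.8 ± 32.7 RPKM in sham mice (log2 fold -3.97, limma adjusted p = 2.08e-05). Kap, the kidney androgen-regulated protein gene, rose in bound RNA at day 14 (log2 fold 2.62, limma adjusted p = 0.00834). That call was lost without the filter on low values. The list summed to 3312 to 7275 RPKM in bound RNA of sham mice and to 10890 to 45590 RPKM in bound RNA at day 14. Most of these bound sums was Kap alone, at 4292 ± 1757 RPKM in sham mice and 29470 ± 17450 RPKM at day 14. They therefore say little of the other listed genes. In unbound RNA of sham mice the list summed to 14350 to 29360 RPKM. The bound day 14 sum thus rose from a low sham level and overlapped with unbound sham.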
